A study of Drosophila melanogaster with 36 samples.

Results

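Light and dark were compared in flies with food around the clock. Of the 36 RNA-seq libraries of *Drosophila melanogaster* indirect flight muscle in the series, 17 entered: 9 collected by day, at ZT3, ZT7 and ZT11, and 8 collected by night, at ZT15, ZT19 and ZT23 (ZT, zeitgeber time, counts hours from lights on). They were chosen by feeding regimen and time label, and no measured value was used, except that the library of *Sk2* mutants at ZT23 was left out because the study set it aside as an outlier. Each library pooled muscle of 10 female flies aged 3 weeks, kept at 22 °C with 12 h of light a day. All flies of these libraries were fed ad libitum (ALF), and they were switched to a food vial when the lights went off. WT-ALF flies were wild type Canton-S on the regular diet, HFD-ALF flies were wild type Canton-S on a high-fat diet made by adding coconut oil, and *Sk2*-ALF flies were mutants of *Sphingosine kinase 2* on the regular diet, for which the labels name no strain. The WT and HFD groups gave 3 day and 3 night libraries each, and *Sk2* gave 3 and 2. Each model was sampled with 1 library at each time, so that replicates of a time are libraries of different models, and p-values measure the spread between these pooled libraries. In the contrasts of phases the libraries of a phase also differ in time. The spread there thus includes any change between the times within a phase.

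The fly clock runs on transcription loops. CLOCK and CYCLE, encoded by *Clk* and *cyc*, activate *period* (*per*) and *timeless* (*tim*), whose proteins later enter the nucleus and repress their own activators, while *vri* and *Pdp1* set the level of *Clk* in a further loop and *cry* encodes a light receptor that leads to loss of TIM protein. Indirect flight muscle powers the wings, and the zinc finger protein Spalt major, encoded by *salm*, selects its fibrillar fate.

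Depth was alike in both phases. Day libraries held 5432971 to 18944737 counts (median 11195517) and night libraries 7097757 to 18810492 (median 10695212), and 3 counts corresponded to between 0.158 and 0.552 CPM (counts scaled to the size of the library). No libraries were identical. *Sk2* itself was counted at 5.56 to 9.16 CPM in WT-ALF, 5.39 to 10.3 CPM in HFD-ALF and 1.54 to 4.65 CPM in *Sk2*-ALF libraries. All 8 markers of flight muscle (*Act88F*, *fln*, *TpnC4*, *Mhc*, *Mlc2*, *up*, *wupA* and *sls*) were counted in every library. Markers of fat body, gut, neurons and haemocytes were counted too, and their values stand beside the results further on. In such bulk samples fewer cells of a type and less RNA per cell cannot be told apart. CPM values of genes are normalised over the 17 libraries, and those of *Sk2*, of marker and list sums and of germline genes over all 36.

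No gene passed the day and night comparison. With the model as a block, 0 of 9690 genes (0%) had an adjusted p under 0.05 by edgeR, and DESeq2 and limma voom called 0 as well. At an unadjusted p under 0.05 there were 375 genes, where 484.5 would fall by chance alone. The smallest adjusted p was 0.416, for *CG2837* (*snsl*), a gene of 11.5 counts per library on average that the naming rule leaves out and that was picked after its value was seen, with a log2 difference of -1.37 ± 0.25 (day minus night, ± SE). The median gene had an SE of 0.17 on the log2 scale and an absolute difference of 0.12. Day and night estimates pointed the same way in all 3 models for 2587 genes (26.7%), of which 1267 were above 0 and 1320 below 0. For no gene did every day library lie above every night library or the reverse. Once each model's mean had been subtracted, *CG1074* alone separated all day from all night libraries.

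At the threshold the study used for its own comparisons, a difference of at least 0.32 in size on the log2 scale with an unadjusted p of at most 0.05, 138 genes were higher by day (1.42% of those tested) and 118 higher by night (1.22%). No gene passed this threshold within all 3 models in the same direction, while 27 genes higher by day and 16 higher by night passed it within at least 2. This count moved with 1 library: it was 459 in place of 256 without HFD-ALF ZT23, and 200 without WT-ALF ZT19.

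**Figure D1:**
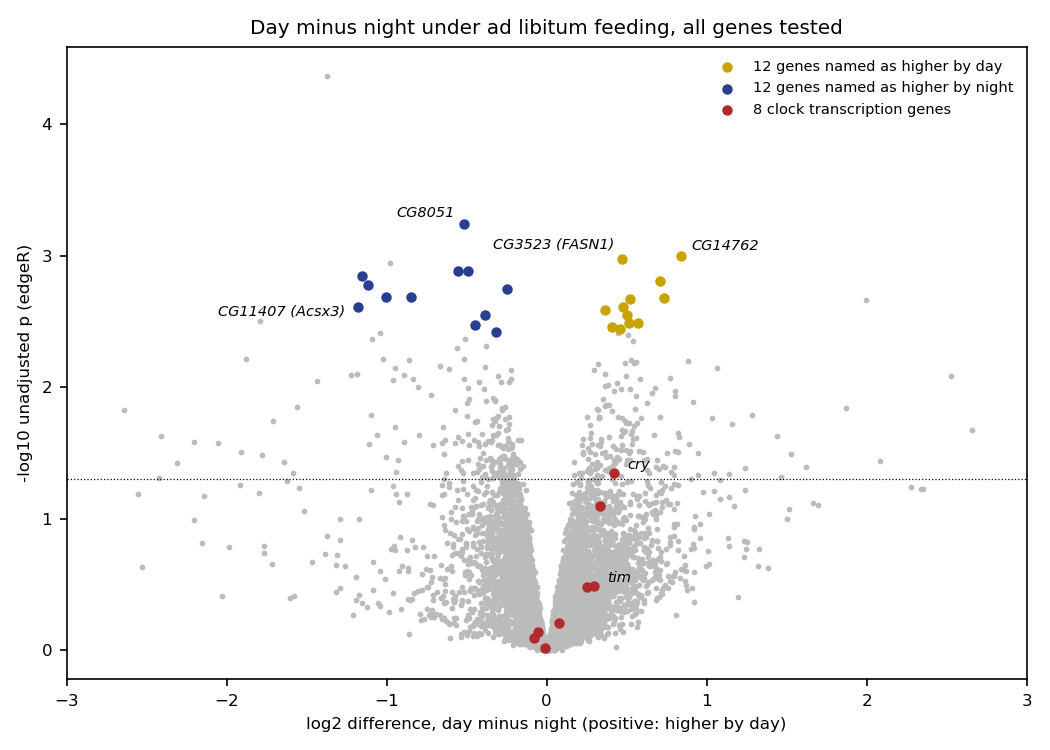
Log2 difference of day minus night (x axis) against -log10 of the unadjusted p by edgeR (y axis) for the 9690 genes tested, with the 12 genes named in each direction and the 8 clock transcription genes coloured. No gene reached an adjusted p under 0.05, and the clock genes lie among the bulk of genes.

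In each direction 12 genes were named, by the smallest unadjusted p among genes with at least 50 counts on average and the same direction in all 3 models. None of these 24 genes passed the adjusted test (adjusted p 0.9997 each), so what follows describes levels.

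A fatty acid synthase gene and a detoxification gene stood among the first of the day side. *CG3523* (*FASN1*), which encodes fatty acid synthase, had day levels of 1402, 2347 and 2995 CPM (lowest, median and highest of 9) against 964, 1533 and 2347 CPM by night (8 libraries). Every night library lay at or below the day median, and the ranges overlapped between 1402 and 2347 CPM. Its log2 difference was +0.47 ± 0.12 (exact permutation p = 5e-04, phases exchanged within models). The exact p-values of the named genes are unadjusted and were taken on genes chosen for a small p in the same contrast, so that they are descriptions and no further evidence. The estimates of *CG3523* were +0.43 in WT, +0.40 in HFD and +0.60 in *Sk2*. *CG14762* had 123, 174 and 331 CPM by day and 56.5, 106 and 149 CPM by night, a log2 difference of +0.84 ± 0.21 (exact permutation p = 0.00225). The ranges of *CG14762* overlapped only at their ends. *Cyp6w1*, a cytochrome P450, had 70.7, 159 and 344 CPM by day and 65.0, 81.5 and 170 CPM by night (log2 +0.71 ± 0.19), and its estimates in the 3 models lay within 0.65 to 0.75.

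Immune and signalling genes followed. *PPO1*, a prophenoloxidase of the melanisation cascade made in haemocytes, had 43.3, 81.7 and 183 CPM by day and 26.3, 39.7 and 83.1 CPM by night (log2 +0.74 ± 0.20). Of 5 haemocyte markers 2 had estimates above 0 (median -0.06), at a summed 444, 646 and 886 CPM by day and 502, 703 and 975 CPM by night, and their part in the result was not tested. *Pli*, the fly Pellino of the Toll pathway, had a log2 difference of +0.52, and *W* (*hid*), a pro-apoptotic gene, +0.57. The zinc finger gene *cbt*, known to respond to sugar, had 113, 131 and 206 CPM by day and 63.1, 96.0 and 134 CPM by night (log2 +0.51 ± 0.15). The night median of *cbt* lay below its lowest day library, and the ranges overlapped above that. *W* had 6.38, 12.2 and 15.2 CPM by day and 5.19, 7.16 and 9.56 CPM by night. *Pli* had 33.4, 46.9 and 79.7 CPM by day and 27.4, 32.03 and 47.1 CPM by night. The day median lay above the highest night library for *W* and just below it for *Pli*.

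The remaining 5 were *ap*, a LIM-homeodomain transcription factor (+0.48), *Unc-13-4B* (*stac*), a Munc13-4 homologue (+0.37), *olf186-M* (+0.50), *Odc1*, ornithine decarboxylase (+0.46), and *CG6985* (+0.41). *CG6985* was counted at 29.9 to 54.6 CPM in *Sk2*-ALF and at 1.10 to 1.99 CPM in the other models, with a difference above 0 in each. *ap* had 43.8, 52.7 and 72.9 CPM by day and 29.3, 35.9 and 65.2 CPM by night, and its estimate was +0.07 in WT, +0.54 in HFD and +0.91 in *Sk2*. *Odc1* had 20.8, 32.9 and 70.8 CPM by day and 10.9, 26.7 and 49.3 CPM by night, with +0.07 in WT and +0.83 in HFD.

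**Figure D2:**
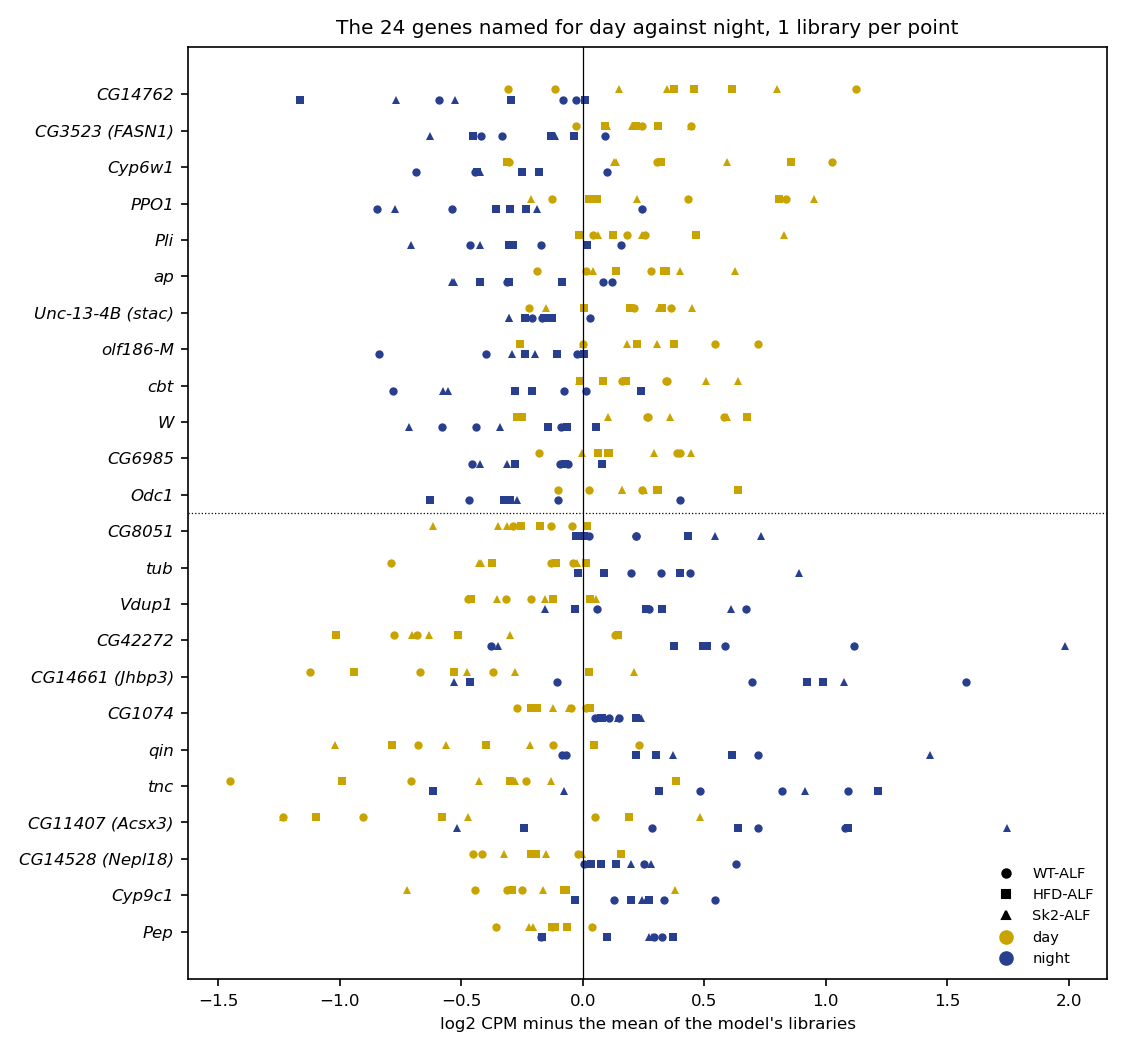
Log2 CPM of the 24 named genes in the 17 libraries, with the mean of the model subtracted (x axis), day in yellow and night in blue and a marker shape for each model. For *CG1074* every night point lies above every day point, and for the other 23 genes day and night points overlap.

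On the night side, *CG1074* had the smallest difference and the least spread. It had 17.6, 22.8 and 28.4 CPM by day and 22.5, 28.2 and 31.2 CPM by night, a log2 difference of -0.25 ± 0.07, and the exact permutation p was 0.00025, the smallest the 4000 arrangements allow. *CG8051* had a log2 difference of -0.52 ± 0.12 (exact permutation p = 0.00075), which was -1.06 in *Sk2*, -0.31 in WT and -0.29 in HFD. The *Sk2* night libraries used had 31.2 CPM of *CG8051* at ZT15 and 35.6 CPM at ZT19. The *Sk2*-ALF ZT23 library that was left out had 11.3 CPM (normalised over 36 libraries), below every day library of its model. The large *Sk2* estimate thus goes against that library. *tub* (tube), an adaptor of the Toll pathway, had 32.4, 38.8 and 57.7 CPM by day and 41.3, 61.8 and 94.8 CPM by night (log2 -0.56 ± 0.14, exact permutation p = 0.001). Thus 2 Toll pathway genes, *Pli* and *tub*, stood on opposite sides.

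Log2 differences of at least 1 in size were found in 4 of the night genes. *CG14661* (*Jhbp3*), by its name a juvenile hormone binding protein, had 35.5, 47.1 and 69.9 CPM by day and 34.3, 117 and 269 CPM by night (log2 -1.12 ± 0.30). Its ZT15 values in HFD (49.4 CPM) and *Sk2* (34.3 CPM) lay no higher than the day range, and values were 104 to 269 CPM at ZT19 and ZT23 in the libraries used. *tnc*, the extracellular matrix protein tenectin, had 5.78, 10.6 and 22.9 CPM by day and 11.4, 23.2 and 40.7 CPM by night (log2 -1.002 ± 0.272). *CG11407* (*Acsx3*), by its name an acyl-CoA synthetase, had 5.12, 9.17 and 30.1 CPM by day and 9.27, 22.0 and 72.3 CPM by night (log2 -1.18 ± 0.33), with *Sk2*-ALF ZT3 and *Sk2*-ALF ZT19 the highest of their phases. *CG42272* had a log2 difference of -1.15 and *qin*, a germline piRNA factor, of -0.85, at a median of 4.34 CPM by day and 9.39 CPM by night.

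The other night genes had smaller differences. *Vdup1*, an arrestin domain protein related to the glucose-responsive mammalian TXNIP, had 22.1, 31.003 and 43.0 CPM by day and 29.8, 37.8 and 63.1 CPM by night (log2 -0.49 ± 0.13). *CG14528* (*Nepl18*), a neprilysin-like gene, had -0.38, the cytochrome P450 *Cyp9c1* -0.45 and *Pep*, an RNA-binding protein, -0.32. The fold differences of all 24 named genes kept their sign under each of 31 other settings.

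The 8 genes of the clock transcription loops did not separate day from night. Of these, 5 had estimates above 0 and 3 below 0, with a median of +0.16 against 0.01 over all genes tested. Only *cry* was past the study's threshold, by day (12.5% of the list, against 1.42% of all genes). *tim* had 134, 259 and 450 CPM by day and 67.2, 172 and 534 CPM by night, with the lowest and the highest library of the 17 both by night, and its log2 difference was +0.30 ± 0.29. *per* had 12.5, 24.9 and 36.96 CPM by day and 6.88, 21.6 and 44.3 CPM by night (log2 +0.25 ± 0.25). For both genes the highest and lowest night libraries lay outside the day range.

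*cry* had 31.3, 70.6 and 98.0 CPM by day and 27.5, 56.5 and 92.3 CPM by night (log2 +0.42 ± 0.19, exact permutation p = 0.063), and the ranges overlapped over most of their length. The activators had differences close to 0: *Clk* -0.08 ± 0.31 and *cyc* -0.01 ± 0.13, where the larger SE of *Clk* comes with a range of 5.66 to 30.1 CPM. *vri* had -0.05 ± 0.14 and *Pdp1* +0.08 ± 0.15. *cwo*, which encodes a repressor of CLOCK targets, had +0.33 ± 0.18.

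A contrast of phases averages over the times within each phase, so the 6 times were also compared with no order assumed. In that test 3 of 9690 genes (0.031%) passed: *salm* (adjusted p = 0.0467), *Hr38* (0.0467) and *tim* (0.0483), and 778 had an unadjusted p under 0.05. In each of the 17 fits that left out 1 library, none of the 3 stayed under 0.05, with adjusted p-values between 0.0539 and 0.25. DESeq2 called 304 genes in the same comparison and limma voom 0, so that the number of time-dependent genes depends on the tool.

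*tim*, on 2L (3493986 to 3508119, minus strand, dm6), followed a course that crosses the boundary of light and dark. In WT-ALF it stood at 163, 259, 189, 314, 147 and 67.2 CPM from ZT3 to ZT23. In HFD-ALF the values were 134, 268, 174, 196, 92.2 and 69.2 CPM, and in *Sk2*-ALF 273, 443, 450, 534 and 282 CPM from ZT3 to ZT19. WT and *Sk2* were highest at ZT15 and HFD at ZT7, and WT and HFD were lowest at ZT23. The *Sk2*-ALF ZT23 library that was left out had 75.6 CPM (normalised over 36 libraries), below the other 5 of its model. *Clk* had its highest level at ZT3 in WT (30.1 CPM) and HFD (26.1 CPM) and at ZT19 in *Sk2* (19.2 CPM), and did not pass (adjusted p = 0.185).

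*salm*, on 2L (11434311 to 11445614, minus strand), was low in the morning of each model. Its levels at ZT3 and ZT7 were 114 and 104 CPM in WT, 72.6 and 65.1 CPM in HFD and 96.3 and 101 CPM in *Sk2*, and at ZT11 they were 208, 134 and 166 CPM. From ZT15 to ZT23 the night values lay between 118 and 200 CPM, so that the ZT11 libraries stood with the night. Its day minus night difference was -0.48 ± 0.17. With ZT11 and ZT23 left out, so that ZT3 and ZT7 were set against ZT15 and ZT19, *salm* was the 1 gene to pass, with a log2 difference of -0.84 (adjusted p = 0.00719). The related *salr* was past the study's threshold too (log2 -0.34 ± 0.15).

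*Hr38*, on 2L (20683462 to 20714588, minus strand), encodes the fly NR4A nuclear receptor, whose transcript is induced by neuronal activity. It was highest at ZT11 in all 3 models, at 64.0 CPM in WT, 178 CPM in HFD and 117 CPM in *Sk2*. In WT the other 5 times lay between 15.8 and 28.4 CPM. In HFD they lay between 62.1 and 149 CPM, and in *Sk2* the ZT15 library was next with 60.6 CPM. Its difference between phases was +0.20 ± 0.39. The library left out, *Sk2*-ALF ZT23, had 10.3 CPM of *Hr38* and 86.1 CPM of *salm* (normalised over 36 libraries), which is below the other 5 libraries of its model for both genes.

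The other genes named for the 6 times did not pass. They were *Ugt35b* (*Ugt35B1*), a UDP-glycosyltransferase (adjusted p = 0.0889), *CG11407* (0.109), *CG14661* (0.147), *Mp20* (0.147), *Clk*, *Sgt1* (0.234) and *CG43102* (0.234). *Mp20*, a calponin-like muscle protein, was higher at ZT19 than at ZT11 and ZT23 in each model that had them. It was at 64.5 CPM against 21.3 and 14.7 CPM in WT, and at 85.6 against 30.03 and 45.7 CPM in HFD. In HFD its highest library was ZT7, at 113 CPM. *Sgt1*, a co-chaperone, was highest at ZT11 in all 3 models, with 87.8 CPM in WT, 87.9 CPM in HFD and 115 CPM in *Sk2*.

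**Figure D3:**
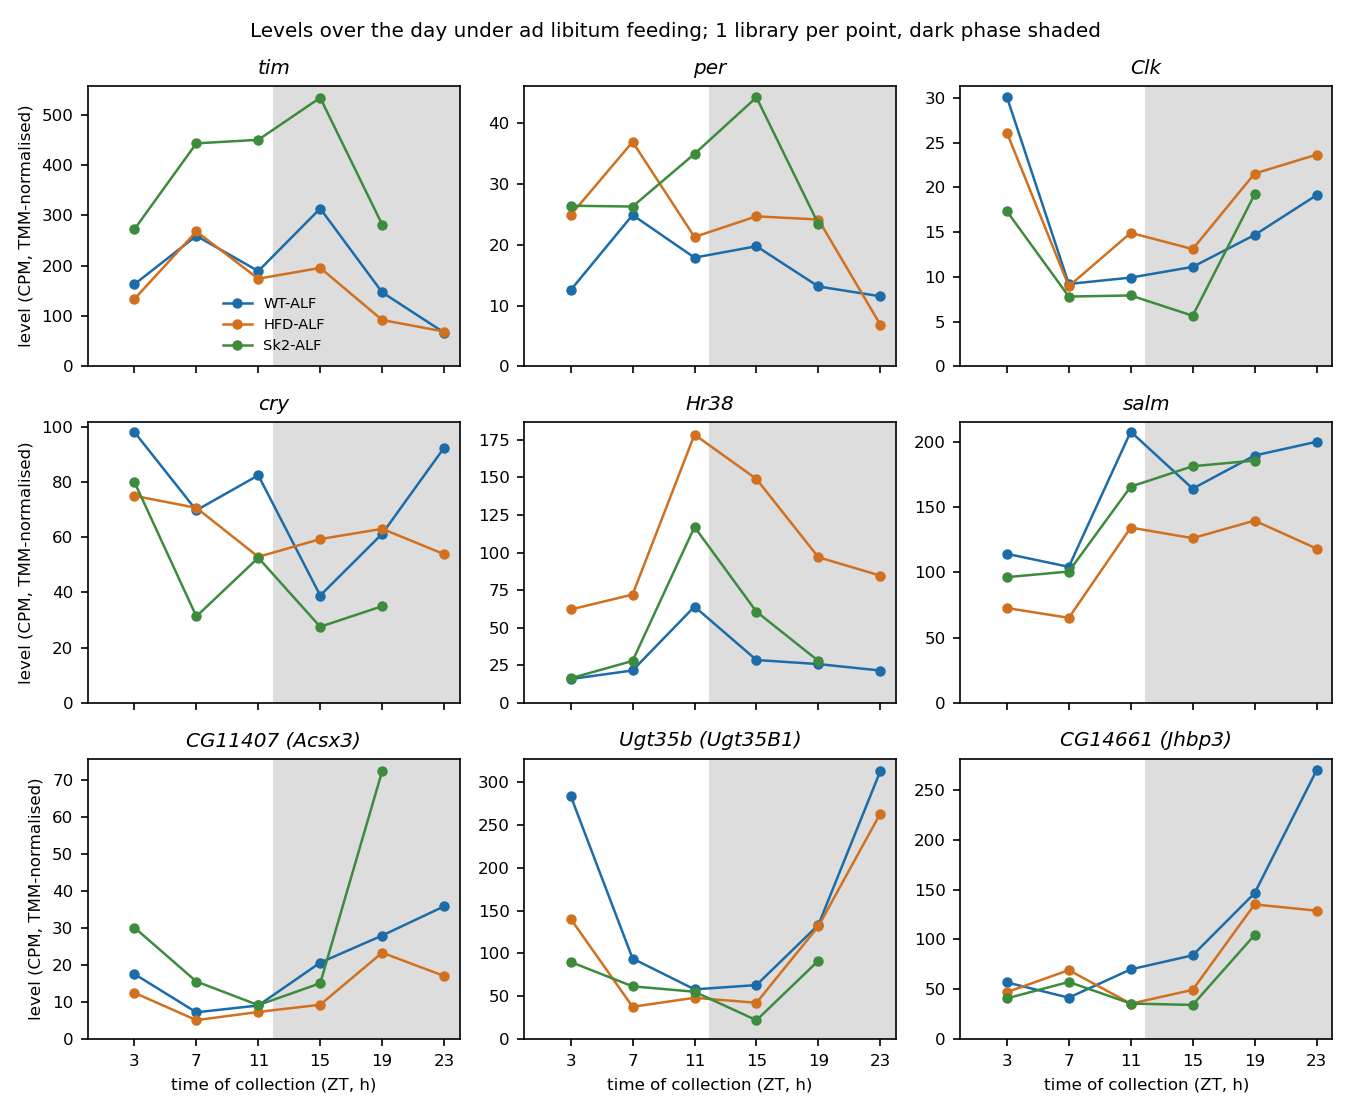
CPM (y axis, from 0) against time of collection (x axis, ZT in hours, dark phase shaded) for the genes shown, 1 library per point and 1 line for each model. *Hr38* is highest at ZT11 in all 3 models, and *salm* at ZT3 and ZT7 lies below its ZT11 level in each.

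A cosine of 24 h was fitted with the same block. Here 4 of 9690 genes (0.0413%) passed: *CG11407* (adjusted p = 0.00551), *Ugt86De* (*Ugt35E2*, 0.00551), *Ugt35b* (0.0256) and *Ugt86Dg* (*Ugt35E1*, 0.0256). At an unadjusted p under 0.05 there were 592 genes, where 484.5 would fall by chance alone. *CG11407* peaked at ZT21.3 with an amplitude of 1.17 on the log2 scale, and passed in all 17 fits that left out 1 library. It rose from 7.22 CPM at ZT7 to 35.8 CPM at ZT23 in WT, from 5.12 to 23.3 CPM at ZT19 in HFD, and from 9.17 CPM at ZT11 to 72.3 CPM at ZT19 in *Sk2*.

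The *Ugt* genes encode enzymes that attach sugars to lipophilic compounds. They neighbour each other on the minus strand of 3R between 11164423 and 11170246, and since they are similar copies, reads could be shared or lost among them in counting. *Ugt35b* was at 284, 94.1, 58.1, 63.1, 133 and 313 CPM from ZT3 to ZT23 in WT and at 141, 37.7, 48.2, 42.4, 132 and 263 CPM in HFD, and its fitted peak was at ZT24.0. Levels were high from ZT19 to ZT3 and low from ZT7 to ZT15 in both. In *Sk2* they spanned 22.0 CPM at ZT15 to 91.5 CPM at ZT19. *Ugt86De* and *Ugt86Dg* were rare, with 28.2 and 10.5 counts per library on average, and *Ugt86Dg* had at most 3 counts in 5 of 9 day libraries. In WT *Ugt86De* was at 4.12, 0.903, 1.33, 3.03, 5.52 and 9.12 CPM from ZT3 to ZT23, and in HFD at 2.13, 0.256, 0.469, 1.51, 4.26 and 5.59 CPM. It was thus highest at ZT23 in both, and in *Sk2* at ZT19 (5.54 CPM). With 1 library left out, *Ugt86De* passed in 16 of 17 fits and the other pair in 5 each.

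The other genes named for the cosine did not pass. *Cyp6a21* had an adjusted p of 0.199 and a fitted peak at ZT21.4, *Vdup1* 0.279 and ZT21.0, and *CG10513* 0.279 and ZT22.0. *Jhe*, juvenile hormone esterase, had a fitted peak at ZT22.7 and the widest amplitude of them, 1.40 (adjusted p = 0.279): it stood at 21.1 CPM at ZT23 in WT and at 16.2 CPM at ZT19 in HFD, but at 0.72 to 4.48 CPM at all times in *Sk2*. *CG14762* had its fitted peak at ZT5.33 and *CG8051* at ZT19.0.

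What a contrast of phases can miss at these times follows from its geometry. A cosine that peaks at ZT1 or ZT13 gives a difference of 0, whereas one that peaks at ZT7 gives 1.33 times its amplitude. There were 592 genes with an unadjusted cosine p under 0.05, where 484.5 would fall by chance alone. They were sorted by their fitted peak, so that the counts per window follow from the geometry and are no separate result. Of these genes, 118 peaked between ZT4 and ZT10, and 86 of the 118 also had a p under 0.05 in the contrast of phases. Between ZT16 and ZT22 there were 127, of which 103 did. Between ZT10 and ZT16 only 3 of 185 did, and between ZT22 and ZT4 only 9 of 162. *tim*, with a fitted peak at ZT10.7 and an amplitude of 0.77, and *Clk*, with a fitted peak at ZT23.5, lie in these last windows, and neither passed the cosine test (adjusted p = 0.279 each).

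Of 19 genes listed as outputs of the clock 18 could be tested, *CG11891* having 0 counts in all 17 libraries. Their median difference was -0.27, with 12 of 18 below 0. Past the study's threshold were 3 (16.7%, against 1.22% of all genes), all higher by night: *CG11407*, *CG10513* and *Cyp6a21*. None of the 3 passed the contrast of phases by edgeR (adjusted p 0.9997 each). *CG10513* had 7.33, 19.6 and 73.3 CPM by day and 24.2, 69.6 and 134 CPM by night (log2 -1.22 ± 0.40). *Cyp6a21*, a cytochrome P450, had 2.35, 5.78 and 16.1 CPM by day and 5.09, 11.5 and 28.3 CPM by night (log2 -0.84 ± 0.28). The estimates of both were below 0 in all 3 models, and day and night ranges overlapped.

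The remaining outputs were less separated. *Slob*, which binds a potassium channel, had a log2 difference of +0.31 ± 0.31, and *e* (ebony) -0.13 ± 0.44, with estimates of -1.17 in WT and +0.76 in *Sk2*. *NLaz*, a lipocalin, had +0.08 ± 0.31, with +0.85 in HFD and -0.66 in *Sk2*. *CG10514*, which neighbours *CG10513* on 3R, had +0.61 ± 0.54 where *CG10513* had a difference below 0, and *CG10553*, of the same region, had -0.44 ± 0.22. *Cyp4d21* had -0.58 ± 0.41 and *Cyp18a1*, which inactivates ecdysone, +0.10 ± 0.18.

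*to* (takeout), which links the clock to feeding, spanned a wide range within each model, with high and low libraries in both phases: it was at 322 CPM at ZT3 and 3.43 CPM at ZT7 in WT, at 8.63 CPM at ZT11 and 531 CPM at ZT15 in HFD, and at 30.7 CPM at ZT11 and 596 CPM at ZT19 in *Sk2*. Its difference was -0.96 with an SE of 1.03. The 13 kinases, phosphatases and turnover factors of the clock had differences between -0.23 (*jet*) and +0.11 (*slmb*) and a median of 0.03, and none was past the study's threshold.

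The genes most like *tim* were taken by Pearson correlation of log2 CPM over the 17 libraries, with each model's mean subtracted. They were *per* (r = 0.77), *Cyp309a1* (0.76), *CG13397* (*Naglu*, 0.75), *CG15107* (0.75) and *Ublcp1* (0.74), all 17 points sharing the libraries of *tim*. Of these *Cyp309a1* had the widest range, from 4.77 to 126 CPM.

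Gene lists are given by their counts, beside all genes tested, of which 51.6% had estimates above 0, 1.42% were past the study's threshold by day and 1.22% by night. Of 16 genes of fatty acid synthesis 13 (81.2%) had estimates above 0 (median +0.19), and *CG3523* and *v(2)k05816* (*FASN2*), both fatty acid synthases, were past the study's threshold (12.5% of the list). *v(2)k05816* had 18.6, 38.5 and 108 CPM by day and 9.04, 13.7 and 48.2 CPM by night (log2 +0.95 ± 0.44). Of 14 genes of beta oxidation 1 (7.14%) had an estimate above 0 and 13 below (median -0.19), and *CG12262* (*Mcad*), the medium-chain acyl-CoA dehydrogenase, and *yip2*, a thiolase, were past the threshold by night (14.3% of the list). *CG12262* had 309, 458 and 1024 CPM by day and 439, 645 and 1319 CPM by night (log2 -0.38 ± 0.13). The summed level of fatty acid synthesis genes was 6635 to 13536 CPM by day (median 10467) and 6410 to 10771 CPM by night (median 8007), and that of beta oxidation 2279 to 4201 CPM (median 2785) and 2578 to 4651 CPM (median 3472). In both lists the phases overlapped.

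Of 17 glycine, folate and purine genes, some of which the study itself examined on these flies so that the list is no independent evidence, 4 (23.5%) were past the study's threshold, all higher by day: *Prat2*, *ade2* (*Pfas*) and *ade3* (*Gart*), which encode enzymes of purine synthesis, and *CG7560*. The share over all genes was 1.42%, and the purine list was split by function after its values were seen. *ade2* had 55.2, 101 and 235 CPM by day and 40.5, 69.2 and 107 CPM by night (log2 +0.52 ± 0.18). *ade3* had a log2 difference of +0.47 ± 0.18 and *Prat2* of +0.44 ± 0.17, and each was above 0 in all 3 models. The list as a whole had 11 estimates above 0 and 6 below, with a median of +0.13. Of 4 further genes that the study examined, *CG7997*, *CG13992*, *grass* and *Lsp2*, 1 estimate lay above 0 (median -0.25) and none was past the threshold.

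Most ribosomal protein genes had estimates below 0. Of 85 cytoplasmic ribosomal protein genes 82 had estimates below 0 (median -0.17, range -1.21 to +0.07, none past the study's threshold). Of 72 mitochondrial ones 67 were below 0 (median -0.15), with *mRpS6*, *mRpS26* and *mRpL15* past the threshold by night (4.17%, against 1.22% of all genes). Of 69 subunits of oxidative phosphorylation 51 were below 0 (median -0.06), of 19 genes of the TCA cycle 16 (median -0.08) and of 32 proteasome subunits 25 (median -0.04). The genes of such complexes share their libraries and are not independent. Of 74 cytochrome P450 genes 41 were above 0 and 33 below (median 0.01), and 6 were past the study's threshold. *Cyp6w1* and *Cyp304a1* were higher by day (2.70% against 1.42% of all genes), and *Cyp6a21*, *Cyp9c1*, *Cyp12c1* and *Cyp312a1* were higher by night (5.41% against 1.22%). *Cyp12c1* had 22.6, 70.2 and 139 CPM by day and 29.6, 94.8 and 163 CPM by night (log2 -0.40 ± 0.16). *Cyp304a1* and *Cyp312a1* were rare, with medians of at most 1.45 CPM in either phase. The estimate of *Cyp304a1* was -0.52 in WT, against +2.62 in HFD and +2.81 in *Sk2*. None of 30 glutathione S-transferases (median -0.06) or 32 redox and detoxification genes (median -0.07) was past the threshold. Glycolysis (15 genes, median -0.01) and autophagy (20 genes, median +0.04) had medians near that of all genes, as did gluconeogenesis, glycogen and trehalose genes (13 genes, median +0.02) and the AMPK, sirtuin and nuclear receptor list (18 genes, median -0.04). Lipid storage and lipolysis genes had 9 of 13 estimates below 0 (median -0.12), none past the threshold.

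**Figure D4:**
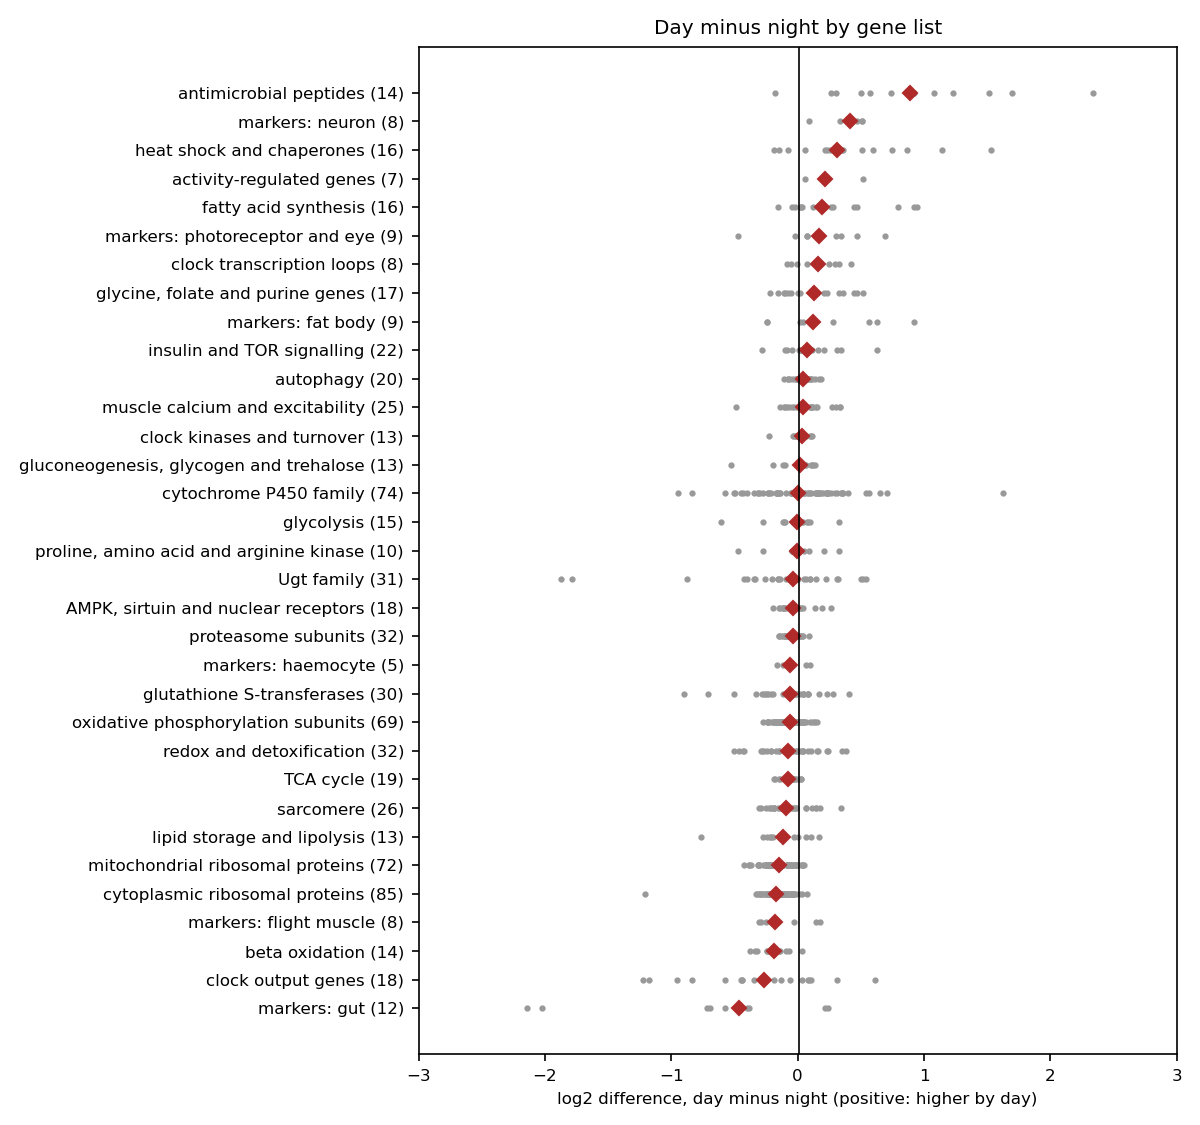
Log2 difference of day minus night (x axis) of each tested gene by list (lists of at least 5 genes tested), with the number of genes tested in brackets, the list's median marked and a vertical line at the median of all genes tested. Ribosomal protein genes lie mostly left of the line and antimicrobial peptide genes mostly right of it, with a wide spread.

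Stress and immune lists spread widely. Of 14 antimicrobial peptide genes 13 had estimates above 0 with a median of +0.89 and a highest of +2.34, and none was past the study's threshold. Their summed level was 162 to 12736 CPM by day (median 1495) and 90.0 to 4201 CPM by night (median 1018), so that libraries of 1 phase differed more than the phases did. Of 16 heat shock and chaperone genes 13 were above 0 (median +0.31), of which *Hsp67Bc*, a small heat shock protein, was past the threshold (6.25%, against 1.42% of all genes). *Hsp67Bc* had 1.08, 2.17 and 34.4 CPM by day and 0.66, 1.67 and 2.87 CPM by night. Its estimates were +0.23 in WT, +2.80 in HFD and +1.23 in *Sk2*. All 4 Turandot genes tested, which encode stress-induced secreted peptides, were above 0 (median +0.19) at a summed 192 to 810 CPM by day and 124 to 3221 CPM by night, the highest library being by night. All 7 activity-regulated genes had estimates above 0 (median +0.21), with *cbt* past the threshold (14.3%, against 1.42% of all genes). In the insulin and TOR list *Ilp6*, the insulin-like peptide of fat body, was the 1 gene past the threshold (4.55%, against 1.42% of all genes). It had 21.8, 29.9 and 69.6 CPM by day and 14.1, 23.8 and 54.7 CPM by night (log2 +0.34 ± 0.14).

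Muscle genes themselves gave few differences. Of 26 sarcomere genes 19 had estimates below 0 (median -0.09), and none was past the study's threshold. Of 4 transcription factors of flight muscle fate, *salm*, *salr*, *exd* and *hth*, *salm* and *salr* were past it by night (50%, against 1.22% of all genes). The sarcomere list was split by function after its values were seen, so that these counts are no independent evidence. The 8 flight muscle markers summed to 15235 to 45317 CPM by day (median 21635) and 15457 to 41815 CPM by night (median 31612). Of 25 genes of muscle calcium handling and excitability none was past the threshold, with a median of +0.04.

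Summed markers of other cell types overlapped between phases. All 8 neuron markers had estimates above 0 (median +0.41), with a summed level of 169 to 814 CPM by day (median 247) and 101 to 681 CPM by night (median 206). Of 12 gut markers tested 10 were below 0 (median -0.46), at 852 to 8094 CPM by day (median 1921) and 605 to 10861 CPM by night (median 3253). Of 9 fat body markers 7 were above 0 (median +0.12), at a summed 15972 to 45711 CPM by day (median 35919) and 16597 to 50490 CPM by night (median 29549). Among them *Rfabg* (*apolpp*), the apolipophorin precursor, was past the study's threshold (11.1%, against 1.42% of all genes). It stood at 4714, 8664 and 16525 CPM by day and 3453, 5618 and 11372 CPM by night (log2 +0.62 ± 0.22). Markers of photoreceptor and eye summed to 58.5 to 159 CPM by day (median 111) and 45.4 to 342 CPM by night (median 70.1). Those of trachea and oenocyte summed to 537 to 2457 CPM by day (median 1281) and 148 to 3821 CPM by night (median 582). In both sets the highest library was *Sk2*-ALF ZT19, which was also the highest for *CG11407*. *CG3523* and *Ilp6* are expressed in fat body as well, and the part of these other cells in the differences above was not tested. Adding the mean of the gut markers to the model left the contrast of phases without a passing gene and gave 7 genes in the cosine test, the 4 above with *tim*, *salm* and *Hr38*.

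Within models, phase accounted for 3.99% of the variance of the 1000 most variable genes, where an even spread over the degrees of freedom would give 7.14%. The 6 times accounted for 43.8% (even spread 35.7%), and the mean of the gut markers alone for 32.3% (even spread 7.14%). Over all genes the shares were 5.12% for phase, 41.6% for the 6 times and 23.6% for the gut markers. The gut term was chosen after seeing the data, so that its share is not on a par with that of phase. The leading principal component held 35.4% of the variance, and its difference between day and night gave an exact permutation p of 0.899.

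**Figure D5:**
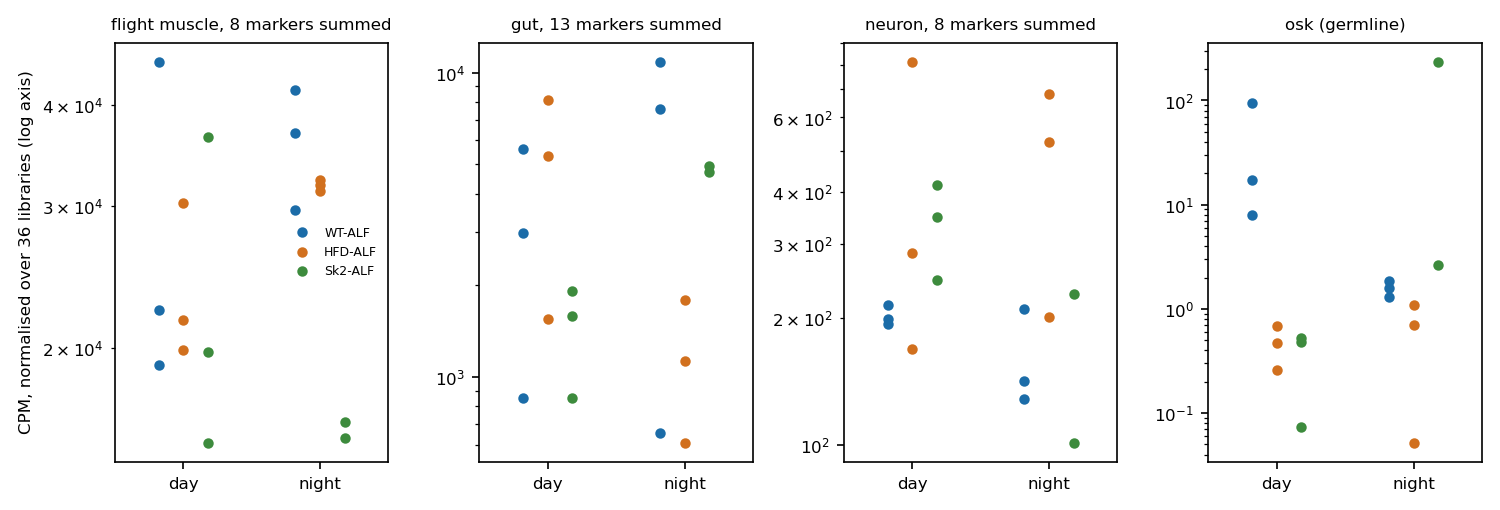
CPM of marker sets and germline genes by phase (y axis, log scale, normalised over 36 libraries), 1 library per point and coloured by model. Gut, muscle and neuron sums overlap between day and night, and *osk* is above 8 CPM in the 3 WT-ALF day libraries and in *Sk2*-ALF ZT15.

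The contrast was also taken within each model. In WT-ALF 0 genes passed by edgeR (334 at an unadjusted p under 0.05, 20 by DESeq2) and in HFD-ALF 0 (345, 14 by DESeq2). In *Sk2*-ALF 2 passed (627, 69 by DESeq2). *CG4408* was at 13.1, 17.8 and 18.6 CPM by day and 2.73 and 3.46 CPM by night in *Sk2*-ALF (log2 +2.42 ± 0.25, adjusted p = 0.00115), and at 32.3 to 48.4 CPM throughout in WT-ALF. In the *Sk2*-ALF ZT23 library that was left out it stood at 22.2 CPM (normalised over 36 libraries), above all 3 day libraries. *Nop60B*, the pseudouridine synthase of the nucleolus, had a log2 difference of -1.63 ± 0.22 (adjusted p = 0.0144).

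The difference of the contrast between models was tested next. It gave 0 genes for HFD minus WT (384 at an unadjusted p under 0.05, 22 by DESeq2), 15 for *Sk2* minus WT (1 above 0 and 14 below, 415 and 70) and 0 for *Sk2* minus HFD (639 and 32). Among the 15 were *piwi* (adjusted p = 0.00536), *nos*, *osk* and *zpg* (0.0294 each), which are known for their roles in the germline, and *CG4408* (0.00901), the 1 gene above 0. For 12 of the 15 the highest of the 17 libraries was *Sk2*-ALF ZT15, and for 13 each WT day library lay above each WT night library.

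*osk*, whose RNA is made in the ovary, stood at 17.3, 94.5 and 8.02 CPM in WT-ALF at ZT3, ZT7 and ZT11 and at 1.30 to 1.85 CPM in WT-ALF by night. It was at 236 CPM in *Sk2*-ALF ZT15, at 2.64 CPM in *Sk2*-ALF ZT19, and between 0.05 and 1.10 CPM in HFD-ALF. The ovary and eggshell markers together summed to 1.99 to 834 CPM by day (median 8.88) and 1.80 to 244 CPM by night (median 4.16), and 3 of 12 could be tested. Without *Sk2*-ALF ZT15, 1 gene (*piwi*) passed for *Sk2* minus WT and 1 (*Diedel*) for *Sk2* minus HFD, and within WT *piwi* passed too. *Sk2*-ALF then has 1 night library, which is assumed to vary like the others. The part of germline RNA in the other calls was not tested, and the 2 libraries set aside by the study held still more *osk* (470 and 726 CPM). With the mean of *nos* and *osk* added to the model, the contrast of phases over all 3 models again called 0 genes.

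Flies under time-restricted feeding (TRF), which had food by day and agar by night, were collected at the same times. Of their 18 libraries 17 were used: WT-TRF ZT11, set aside by the study, was left out, so that WT has 2 day libraries under TRF. Day minus night within TRF called 5 of 10085 genes (0.0496%), and 728 had an unadjusted p under 0.05. The 5 genes, of which *fit* and *T3dh* were named after their values were seen, were *CG34136* (log2 -1.40, adjusted p = 0.000449), *CG1628* (+1.41, 0.0172), *CG9319* (*Amacr*, -0.34, 0.0255), *fit*, a satiety signal of the fat body (+1.36, 0.0356), and *T3dh* (-0.49, 0.0496). Under ALF, in the fit of 17 libraries, *CG34136* had -0.10 ± 0.18, *CG1628* +0.45 ± 0.22 and *CG9319* -0.22 ± 0.07.

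The difference of the contrast between regimens called 0 genes by edgeR (441 at an unadjusted p under 0.05, smallest adjusted p 0.30) and 1 by DESeq2, *CG34136*. Of the genes that led under ALF, *CG3523* had +0.91 under TRF against +0.47 under ALF, *CG11407* -1.53 against -1.18 and *tub* -0.52 against -0.56. *PPO1* had +0.01 under TRF against +0.74, *Pep* 0.00 against -0.32 and *CG1074* +0.15 against -0.25. None of these genes passed within TRF. They are examples from the genes named under ALF, and the others are not given here. All were named for a small p under ALF, so that a smaller difference under TRF is by itself no evidence of a change between regimens. The ALF values come from the fit of the ALF libraries alone, and the TRF values from the fit of both regimens.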

How the data were processed

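Raw counts per gene were deposited by the authors as 1 table of 36 libraries and 16727 genes, made with featureCounts 1.5.0-p1 over exons on the reverse strand of dm6. The sources differ in the STAR version and the build they name, and the gene positions in the table are those of dm6. All columns were mapped to samples, 0 being left over. Names were matched to current symbols of RefSeq (assembly Release 6) for 16445 of 16727 genes. Groups came from the sample titles.

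The quasi-likelihood F-test of edgeR 4.0.16, run in R 4.3.3 after filtering by filterByExpr and TMM scaling, was applied to the counts with model as a block and phase, time or a cosine of 24 h as the term, and Benjamini-Hochberg adjustment over all genes tested. The contrasts within and between models used 6 means, and the comparison with TRF used 34 libraries. DESeq2 1.42.0 and limma 3.58.1 (voom with quality weights) were alternatives, with other scalings, filters, libraries and covariates. Exact permutation tests were two-sided over 4000 arrangements of log2 CPM (prior count 2). Fits were tested on simulated data. The standard errors cover the spread between libraries, and the value of 3 counts covers counting error only.

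The genes named were, in each direction, the 12 of smallest p with at least 50 counts on average and the same direction in all 3 models, the 10 of smallest p for the 6 times and for the cosine, the clock lists, list members that passed, 3 for each contrast with calls, and 5 genes most like *tim*. The comparison, the gene lists and the tests were chosen with earlier results of these data known. The sarcomere and the purine lists were each split by function after their values were seen. No sequences are printed, since none were used here.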

Additional observations from a re-analysis of the deposited data

Results flagged for a closer look

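In 30 genes, 60 groups of day or night libraries were searched for a library far from the rest after each model's mean had been subtracted, where about 3 would be expected by chance, and 1 was found: *CG14528* (*Nepl18*) in WT-ALF ZT23, at 112.564 CPM among 8 night libraries.

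For 15 genes the difference of day minus night was itself different between *Sk2* and WT. The adjusted p (edgeR) was 0.00536 for *piwi*, 0.00901 for *CG4408*, 0.0294 for *CG9925* (*Kots*), *zpg*, *nos* and *osk*, 0.0315 for *Mcm5* and *Nop60B*, 0.0380 for *Tmhs*, 0.0391 for *fs(1)M3*, 0.0443 for *RpS5b*, and 0.0445 for *ndl*, *clos*, *mud* and *Pxt*. *CG4408* alone had the larger day value relative to night in *Sk2*. *piwi* stood at 9.01 to 26.1 CPM in WT-ALF by day, at 0.213 to 0.576 CPM in WT-ALF by night, at 0.293 to 0.790 CPM in *Sk2*-ALF by day, and at 23.2 CPM in *Sk2*-ALF ZT15. *RpS5b*, a germline copy of a ribosomal protein gene, stood at 2.75 to 16.4 CPM in WT-ALF by day and at 51.7 CPM in *Sk2*-ALF ZT15. Without that library 1 of the 15 differences passed.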

How the results depend on the processing

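In the contrast of phases 0 genes passed under every alternative run except the one with ZT3 and ZT7 against ZT15 and ZT19, where 1 passed (*salm*, log2 -0.84). Named genes past an unadjusted p of 0.05 (33 genes) kept their sign in each setting in which they were tested (31, and 29 for *Ugt86Dg* and 30 for *Ugt86De*). These genes were taken by their p on the same counts, so that the kept signs are no further evidence. The 256 genes past the study's threshold became 393 with *Sk2*-ALF ZT23 put back, 418 with no filter, 150 with no model term, 573 with 4 times, 655 without HFD and 450 with voom, and ranged from 200 to 459 with 1 library left out. The 3 genes of the 6 times became 0 with *Sk2*-ALF ZT23 put back, with RLE size factors, with no model term, with germline markers as a covariate and with voom, 5 with no filter, 1 with gut markers as a covariate and 304 with DESeq2, and ranged from 0 to 0 with 1 library left out. The 4 cosine genes became 0 with no model term, 46 with DESeq2, 7 with gut markers and 11 with voom, and ranged from 1 (without *Sk2*-ALF ZT19) to 5. Within *Sk2* 2 genes became 27 with *Sk2*-ALF ZT23 put back, 69 with DESeq2 and 1 without *Sk2*-ALF ZT15. DESeq2 called 20 within WT and 14 within HFD, and 1 was called within WT without *Sk2*-ALF ZT15. For *Sk2* minus WT, 15 became 29 with ZT23 put back, 70 with DESeq2 and 1 without *Sk2*-ALF ZT15. DESeq2 called 22 for HFD minus WT and 32 for *Sk2* minus HFD, where 1 was called without *Sk2*-ALF ZT15. For TRF minus ALF DESeq2 called 1, and within TRF 52 in place of 5. The cause of these shifts was not tested. The covariates, voom and the fits without *Sk2*-ALF ZT15 were chosen after seeing the data. The median half-width of the interval of a difference was 0.35 on the log2 scale at this number of libraries.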
